A study of Mus musculus with 44 samples.

Results

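The comparison of NCoR knockout (NKO) with wild-type (WT) bone marrow-derived macrophages (BMDMs) after 6 h of interferon β (IFNβ) rested on 4 of the 44 RNA-seq libraries of the series, 2 per genotype. The 4 libraries were chosen by their labels alone, and every gene of their count table was examined: 24940 genes were listed and 13407 passed the filter on low counts. BMDMs are macrophages grown in culture from marrow precursors of young adult C57BL/6 mice. WT cells carried the genotype NCoR flox/flox and NKO cells the genotype NCoR flox/flox, LysMCre, in which Cre recombinase made from the Lyz2 (lysozyme M) locus deletes the floxed NCoR gene in myeloid cells. The same table held both genotypes with vehicle, poly I:C or IL4 for 6 h under the same date stamp, and these 12 libraries served for comparison. All NKO groups carried Cre and no WT group did, so that an effect of NCoR loss and one of the Cre allele cannot be told apart. The labels do not say whether replicates came from separate animals or cultures, and the p-values measure only the spread between replicate libraries, which may be technical. That spread was estimated over all 24 libraries of the table, including groups with KLA or RANKL under other date stamps.

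NCoR, the product of Ncor1, keeps the histone deacetylase HDAC3 bound and active and is recruited to DNA by unliganded nuclear receptors, among them the liver X receptors (LXRs), and by other repressors. IFNβ binds the receptor made of IFNAR1 and IFNAR2 and activates JAK kinases and STAT factors, which with IRF9 bind the interferon-stimulated response element in front of interferon-stimulated genes (ISGs). ISG products block viral replication at many steps. The comparison addressed which genes depend on NCoR while this pathway is active.

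The targeted gene was lower in both NKO libraries. Ncor1 (chr11:62316426-62438515, mm10) was at 179 and 169.7 CPM in the WT libraries and 55 and 55.8 CPM in the NKO libraries, a 3.14-fold decrease (log2 fold change -1.65 ± 0.06 SE, edgeR adjusted p = 3.33e-29). CPM are counts divided by the TMM-scaled library size, and the counts covered all annotated exons and not only the floxed part. Hdac3 (39 and 38.1 CPM in WT and 39.6 and 40.2 CPM in NKO) did not pass the test, with a log2 difference of 0.05 ± 0.08. Tbl1xr1, a further subunit of the complex, was higher at 114 and 119 CPM in WT and 207 and 200.3 CPM in NKO. The 4 libraries held 12.3 M to 13.8 M counts in genes, and 3 counts, taken as the limit of detection, corresponded to 0.217 to 0.244 CPM. Replicates correlated at 0.994 (WT) and 0.993 (NKO) in log2 CPM across genes, and libraries of different genotypes at 0.989 to 0.990. Macrophage markers summed to 14730 and 14670 CPM in WT and to 12180 and 12250 CPM in NKO, and all 12 were above 3 counts. Neutrophil markers summed to 3.69 to 6.45 CPM, T cell markers to 8.74 and 9.47 CPM in WT and 5.74 and 6.17 CPM in NKO, with Cd3e, Cd3d, Cd8a and Cd8b1 at 0, B cell markers to 1.84 to 3.97 CPM, and NK cell markers to at most 0.259 CPM. Cd4 made up most of the T cell sum (8.36 and 9.03 CPM in WT and 5.67 and 5.87 CPM in NKO) and was called lower (1.5-fold, edgeR adjusted p = 0.0138), a call lost with each of the 4 libraries left out in turn (adjusted p = 0.0527 to 0.117). Dendritic cell markers summed to 357 to 416 CPM, most of it from Bst2 and Itgax. Bst2 had 3795 and 3252 counts in WT and 3424 and 3150 in NKO, and is also one of the antiviral ISGs listed below. Itgax had 1758 and 1606 counts in WT and 2422 and 2157 in NKO. Flt3, Zbtb46, Xcr1 and Siglech had at most 10 counts in any library, and Cd209a and Ccr7 had 0. Fibroblast and stromal markers summed to 101 and 99.7 CPM in WT and to 67.3 and 72 CPM in NKO, with no member called. The part of other cells in the differences described here was not tested.

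Under IFNβ, 250 genes were higher and 260 were lower in NKO than in WT cells. Calls required a change above 1.5-fold together with a Benjamini-Hochberg adjusted p below 0.05 in the quasi-likelihood test of edgeR, so that 3.8% of the tested genes were called, 1.86% in the upward and 1.94% in the downward direction. The changes were mostly moderate: 92 genes were more than 2-fold higher and 69 more than 2-fold lower, while 21 and 8 genes passed 4-fold. The median log2 fold change was 0.84 among the higher and -0.79 among the lower genes, against 0 over all tested genes. For each of the 510 genes the libraries of the 2 genotypes did not overlap, as was the case for 54.5% of all tested genes. Bulk RNA cannot tell fewer cells of one kind from less RNA per cell. Without WT_IFNβ replicate 1 the number of lower genes fell to 164.

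**Figure D1:**
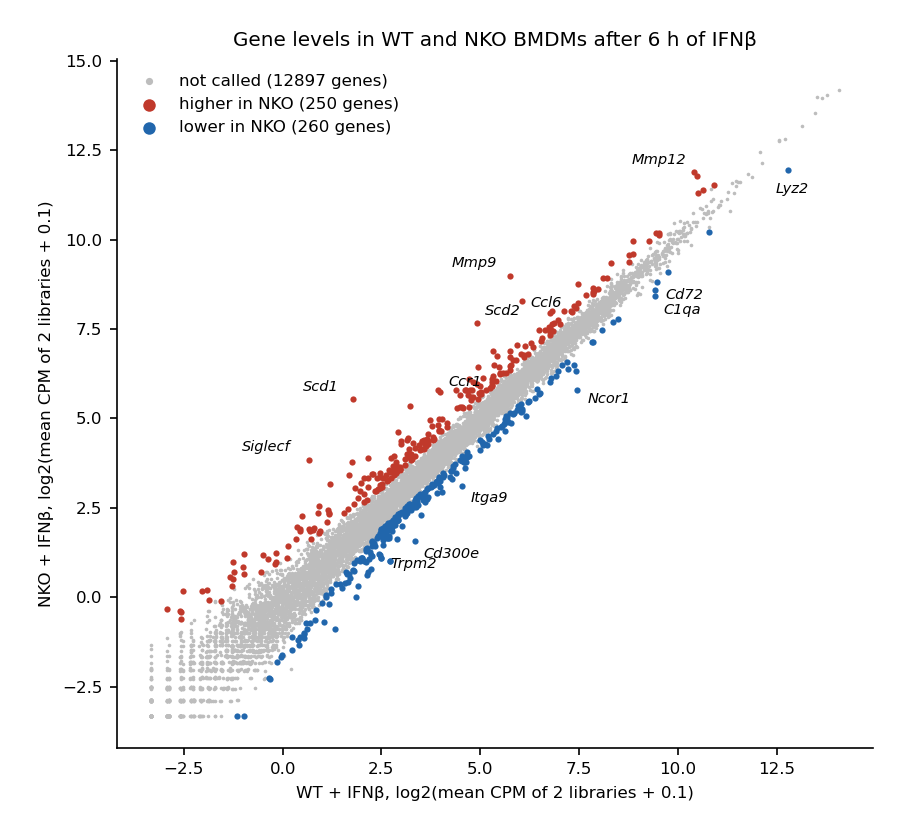
Each point is 1 of 13407 tested genes, placed by log2 of its mean CPM plus 0.1 in the 2 WT libraries (horizontal) and the 2 NKO libraries (vertical) after 6 h of IFNβ. The 250 genes called higher in NKO (red) include Scd1, Siglecf and Mmp9 far above the grey band of genes not called, whereas the 260 genes called lower (blue) lie closer to it.

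Scd1 and Scd2, genes of fatty acid synthesis, were among the 15 largest increases. The stearoyl-CoA desaturases Scd1 and Scd2, neighbours on chromosome 19 (chr19:44394450-44407709 and chr19:44293676-44306862), introduce the double bond that makes monounsaturated fatty acids. Scd1 was at 3.63 and 3.01 CPM in the WT libraries and 43.1 and 49.3 CPM in the NKO libraries, and Scd2 at 32.9 and 27.4 CPM and 199 and 206 CPM. Scd1 rose 13.8-fold (log2 fold change 3.79 ± 0.16 SE, edgeR adjusted p = 3.4e-22) and Scd2 6.69-fold (log2 fold change 2.74 ± 0.12 SE, edgeR adjusted p = 1.32e-10). Of 13 fatty acid synthesis genes 3 were higher and 0 lower, beside 1.86% and 1.94% of all tested genes, with a list median of 0.35. The third was Acaca, the acetyl-CoA carboxylase that commits acetyl-CoA to fatty acids (7.25 and 7.12 CPM in WT and 12.8 and 14.6 CPM in NKO). Fasn, the fatty acid synthase, was at 65.6 and 59 CPM in WT and 69.2 and 77.9 CPM in NKO and did not pass the test (adjusted p = 0.285), and Srebf1, encoding the SREBP1 factor that drives this pathway, was 1.47-fold higher and under the fold threshold.

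Calls among genes of cholesterol synthesis and uptake were all increases. Of 21 listed genes 11 were higher and 0 lower in NKO, beside 1.86% of all tested genes, and of the other 10 genes 2 lay below 0. The list median was 0.59. The called genes spanned the route from an early step (Hmgcs1) over Mvd, Fdps and Sqle, the squalene epoxidase, to late ones (Hsd17b7, Sc5d and Dhcr7), and included the sterol-regulated Insig1. Sqle was at 30.4 and 29.4 CPM in the WT libraries and 63.4 and 61.8 CPM in the NKO libraries (log2 fold change 1.06 ± 0.09 SE, edgeR adjusted p = 5.17e-12). Mvd, a decarboxylase of the mevalonate route, was at 10.2 and 7.49 CPM in WT and 16.5 and 15.7 CPM in NKO, and Sc5d, a sterol desaturase, at 26.9 and 26.9 CPM in WT and 44.6 and 46.9 CPM in NKO. For each of these genes both NKO libraries were above both WT libraries, as for every gene called higher, so nothing is read from it. Hmgcs1, Insig1, Fdps and Dhcr7 exceeded the fold threshold by little, at 1.51-fold to 1.53-fold, and with single libraries left out 8 to 10 of the 11 increases were still called.

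Among LXR target genes the efflux pumps rose. Of 12 targets of cholesterol efflux and lipoprotein handling 4 were higher and 1 lower (1.86% and 1.94% of all tested genes), with a list median of 0.31. The efflux pumps Abca1 (469 and 469 CPM in WT and 997 and 993 CPM in NKO) and Abcg1 (689 and 702 CPM in WT and 1141 and 1195 CPM in NKO) rose 2.12-fold and 1.68-fold (edgeR adjusted p = 1.37e-09 and 3.27e-19), and the phospholipid transfer protein Pltp and the lysophospholipid acyltransferase Lpcat3 rose 1.53-fold and 1.56-fold. Cd5l, a secreted macrophage protein, fell to 571 and 519 CPM from 904 and 828 CPM. Apoe, the main macrophage apolipoprotein, was at 2655 and 2834 CPM in WT and 2488 and 2509.6 CPM in NKO and was not called (log2 difference -0.14 ± 0.13). Of the LXR genes themselves, Nr1h2 was at a log2 difference of -0.03 ± 0.06, and Nr1h3 at -0.38 ± 0.07 (edgeR adjusted p = 8.59e-05), under the fold threshold. Plin2, which coats lipid droplets, was among the most abundant increased genes, at 1418 and 1481 CPM in WT and 2529 and 2538 CPM in NKO.

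Secreted proteases and osteoclast genes formed a further group of increases. Mmp9 (chr2:164948219-164955850), a gelatinase, was at 54.5 and 53.5 CPM in the WT libraries and 490.0 and 524 CPM in the NKO libraries (log2 fold change 3.23 ± 0.22 SE, edgeR adjusted p = 1.57e-07). Mmp12, the macrophage elastase, was the most abundant increased gene, at 1313 and 1397 CPM in WT and 3757 and 3834 CPM in NKO, a 2.8-fold change. The collagenases Mmp13 (168 and 186 CPM in WT and 419 and 439.5 CPM in NKO) and Mmp8 (7.12 and 5.95 CPM in WT and 14 and 15.5 CPM in NKO) were higher, whereas the membrane-bound Mmp14 was lower at 22.3 and 19.5 CPM in WT and 10.6 and 11.4 CPM in NKO and lost its call with 3 of the 4 libraries left out in turn (adjusted p = 0.0525 to 0.108). Thus 4 of 13 tested metalloproteinases and inhibitors were higher and 1 was lower, beside 1.86% and 1.94% of all tested genes. Of 6 osteoclast genes tested 4 were higher and 0 lower, against the same shares: Acp5, the tartrate-resistant phosphatase (24 and 28 CPM in WT and 68.1 and 69 CPM in NKO), Ctsk, the cathepsin that degrades bone collagen (23.4 and 25.2 CPM in WT and 53.2 and 57.8 CPM in NKO), Dcstamp, needed for cell fusion (8.55 and 7.2 CPM in WT and 19.8 and 19.4 CPM in NKO), and Atp6v0d2, a proton pump subunit (709 and 759 CPM in WT and 1140.1 and 1101 CPM in NKO). Without WT_IFNβ replicate 1 Atp6v0d2 was at 0.56 on the log2 scale, just under the fold threshold. Nfatc1, the transcription factor that directs osteoclast formation, was at 63.8 and 65.8 CPM in WT and 60.9 and 59.7 CPM in NKO, Ocstamp was at or near the limit of detection (0.13 and 0.0734 CPM and 0.425 and 0.152 CPM), and Calcr had no count in the 4 libraries. The lysosomal protease Ctsl was higher as well, at 1434 and 1452 CPM in WT and 3573 and 3501 CPM in NKO.

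Among surface receptors and chemokines, Siglecf, Ccl6 and Ccr1 rose most. Siglecf (chr7:43351341-43359470), a sialic acid-binding receptor, was at 1.94 and 1.03 CPM in the WT libraries and 13.2 and 15.5 CPM in the NKO libraries (log2 fold change 3.23 ± 0.22 SE, edgeR adjusted p = 1.57e-18). Of the 13 tested Siglec and CD300 receptors 1 was higher and 2 lower, beside 1.86% and 1.94% of all tested genes. The lower ones were Cd300e, an activating receptor, and Siglece, an inhibitory one. Siglece had at most 2.06 CPM in any library and was not called with 3 of the 4 libraries left out in turn. Of 21 chemokines 3 were higher and 1 lower, beside 1.86% and 1.94% of all tested genes. Ccl6 was at 65.9 and 66.3 CPM in WT and 318 and 308 CPM in NKO, Ccl9 at 320.1 and 310.4 CPM in WT and 659.9 and 636 CPM in NKO and Cxcl14 at 24.9 and 29.4 CPM in WT and 46.9 and 50.3 CPM in NKO, and the lower one was Ccl4 at 31.8 and 31.9 CPM in WT and 18 and 16.8 CPM in NKO. Cxcl14 was not called without WT_IFNβ replicate 1 (adjusted p = 0.0576). Of 13 chemokine receptors 2 were higher and 0 lower, against the same shares: Ccr1, which binds CC chemokines (13.7 and 16.9 CPM in WT and 53.2 and 57.8 CPM in NKO), and Ccrl2, an atypical receptor (56.3 and 64.6 CPM in WT and 126 and 139 CPM in NKO).

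The remaining genes with the largest increases had mixed roles. Nr1d1 (REV-ERBα), a nuclear receptor of the circadian clock that itself recruits NCoR, was at 9.33 and 9.03 CPM in WT and 38.8 and 42.2 CPM in NKO (log2 fold change 2.14 ± 0.12 SE, edgeR adjusted p = 1.12e-21). Pkp2, a desmosome protein, rose 4.14-fold, Vsig8 4-fold, Met, the receptor of hepatocyte growth factor, 3.43-fold, and Slc27a6, a fatty acid transporter, 3.42-fold. Eef1a2, an elongation factor, rose 3.42-fold, Myrf, a membrane-bound transcription factor, 3.27-fold, Slc12a5, a potassium chloride transporter, 3.23-fold, and Mgll, the monoacylglycerol lipase, 2.96-fold. For each of them the edgeR adjusted p was at most 5.07e-07. Egr2, a transcription factor also induced by IL4, was at 43.7 and 41.3 CPM in WT and 107 and 108 CPM in NKO.

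The 15 largest decreases among genes of at least 5 CPM had mixed roles and included Ncor1. Cd300e (chr11:115051917-115062039) was at 10.9 and 9.47 CPM in the WT libraries and 2.98 and 2.74 CPM in the NKO libraries (log2 fold change -1.83 ± 0.21 SE, edgeR adjusted p = 3.14e-10). H2-Q7 and H2-Q9 had equal counts in the 4 libraries, as had H2-Q6 and H2-Q8. Each pair is annotated at overlapping positions on chromosome 17 and shares its reads, so the 4 calls stand for 2 measurements and remain uncertain. The first pair was at 7.32 and 5.58 CPM in WT and 2.34 and 1.52 CPM in NKO. Itga9, an integrin chain, was at 22.9 and 23.7 CPM in WT and 7.73 and 9.45 CPM in NKO and Trpm2, a calcium channel opened by oxidative stress, at 5.25 and 5.66 CPM in WT and 2.2 and 2.13 CPM in NKO. Tox2, Plxnb3, Tgfb3, Tmem176b, Clec4a1, Il16 and Tk1 were 2.13-fold to 2.43-fold lower, and Tmem176b was not called with 3 of the 4 libraries left out in turn (adjusted p = 0.0529 to 0.0832). Without WT_IFNβ replicate 1 or NKO_IFNβ replicate 2 the second H2-Q pair was not called either (adjusted p = 0.0620 to 0.102). Among abundant genes, Lyz2, the locus that carries Cre in NKO cells, was at 7099 and 7080.3 CPM in WT and 3975 and 3834 CPM in NKO, the complement genes C1qa and C1qc fell 1.99-fold and 1.5-fold, C1qc at the threshold itself, the scavenger receptor Stab1 1.79-fold and the surface receptor Cd72 1.59-fold. C1qa, C1qc and Cd14, the lipopolysaccharide coreceptor (342 and 319 CPM in WT and 203 and 209.5 CPM in NKO), were the called members among 12 macrophage markers. Of the 12 markers 0 were called higher and 3 lower, beside 1.86% and 1.94% of all tested genes. A log2 difference below 0 was found for 10, with a median of -0.19. At any fold 6 had an edgeR adjusted p below 0.05, as had 1806 of the 13407 tested genes. Csf1r, the receptor of M-CSF, was not called, at 2423 and 2405 CPM in WT and 2241 and 2278 CPM in NKO (log2 difference -0.10 ± 0.05).

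**Figure D2:**
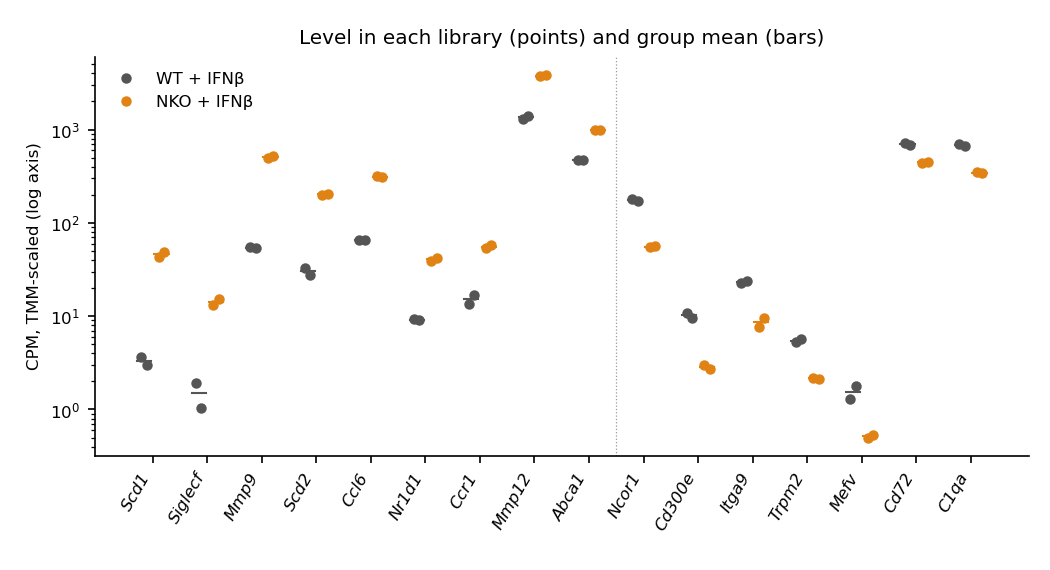
Level of 16 genes in CPM on a log axis, with 1 point per library (grey, WT with IFNβ; orange, NKO with IFNβ) and a bar at the mean of 2 libraries. For each gene left of the dotted line both NKO libraries lie above both WT libraries, and for each gene right of it they lie below. The genes were chosen among called genes, none of which overlapped between genotypes, so nothing is read from this order.

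Inflammatory genes were lower in small numbers. Of 13 inflammasome genes 0 were higher and 3 lower, beside 1.86% and 1.94% of all tested genes: Nlrp3, the sensor of cell damage (47.3 and 46 CPM in WT and 27.6 and 27.7 CPM in NKO), Nlrc4, which assembles an inflammasome on bacterial flagellin (13.9 and 15.3 CPM in WT and 9.5 and 8.91 CPM in NKO), and Mefv, which encodes pyrin and was at most 1.76 CPM. Mefv was not called with 3 of the 4 libraries left out in turn (adjusted p = 0.0641 to 0.120). Of 23 NFκB-linked genes 0 were higher and 3 lower, against the same shares, namely Nlrp3, the adhesion molecule Icam1 (70.5 and 63.4 CPM in WT and 37.9 and 38.9 CPM in NKO) and the ferroxidase Cp (13.8 and 12.9 CPM in WT and 8.22 and 8.61 CPM in NKO). Cp lost its call with each of the 4 libraries left out in turn (adjusted p = 0.0966 to 0.226). Ptgs2, which encodes cyclooxygenase-2, was at 1.1 and 0.955 CPM in WT and 0.921 and 0.533 CPM in NKO and was not called (log2 difference -0.49 ± 0.89), and Il12a had no count. Of 11 costimulatory and checkpoint genes 1 was higher, Cd274 (PD-L1), and 2 were lower, Icosl and Havcr2 (TIM-3), beside 1.86% and 1.94% of all tested genes. Other lists leaned in one direction with few or no calls. Of 23 cell division genes 22 had a log2 difference below 0, with a median of -0.39. Called were 0 higher and 2 lower, Ccne1 and Cdc20, beside 1.86% and 1.94% of all tested genes. Ccne1 lost its call without NKO_IFNβ replicate 1, and Cdc20 with each of the 4 libraries left out in turn. All 7 MHC class II genes were below 0, with a median of -0.46 and 0 calls, against the same shares.

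**Figure D3:**
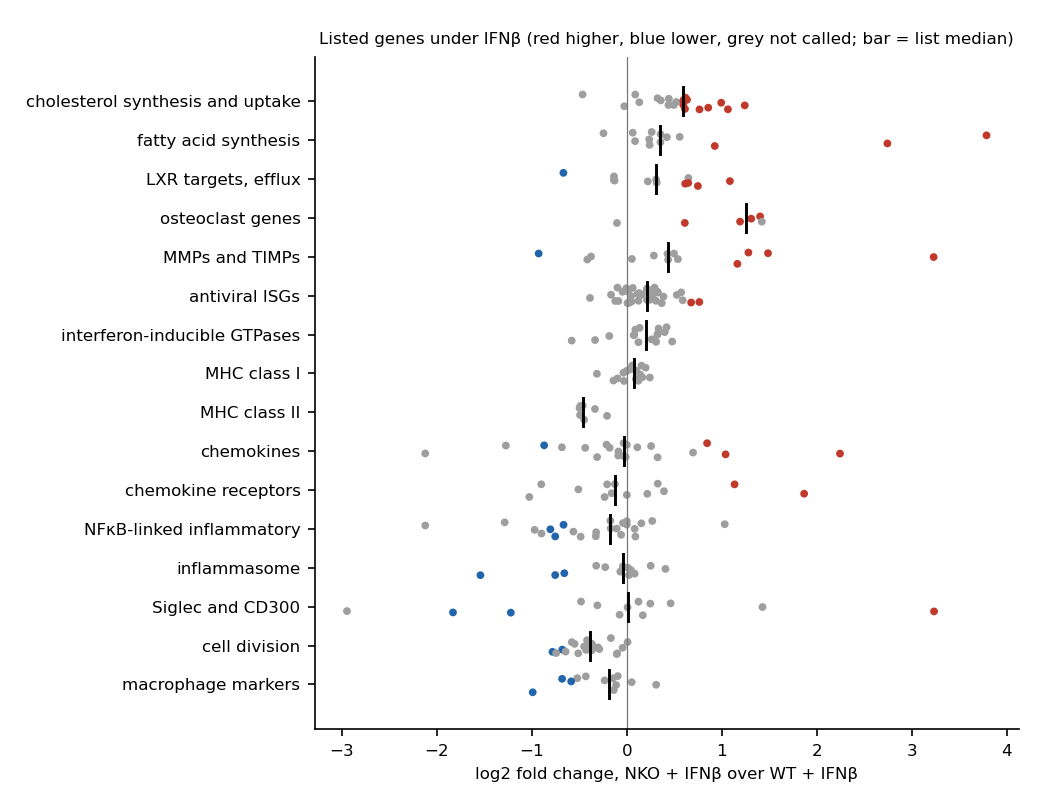
log2 fold change of NKO over WT under IFNβ (horizontal) for the tested members of 16 gene lists, with 1 point per gene (red, called higher; blue, called lower; grey, not called) and a black bar at the list median. The medians of cholesterol synthesis (0.59) and osteoclast genes (1.25) lie to the right of 0, those of antiviral ISGs (0.21) and interferon-inducible GTPases (0.20) near 0, and that of MHC class II (-0.46) to the left.

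Most listed antiviral ISGs were induced in both genotypes, and with IFNβ present 2 of the 39 tested were called between genotypes. Of 39 tested antiviral ISGs 37 were induced by IFNβ in WT and 37 in NKO, against 4.09% and 5.65% of all tested genes called induced. Of 16 interferon-inducible GTPases, which attack the vacuoles of intracellular pathogens, 15 were induced in each genotype. Between genotypes under IFNβ, 2 of the 39 antiviral ISGs were called higher and 0 lower, and of the GTPases 0 were called in either direction, beside 1.86% of all tested genes called higher and 1.94% lower. The list medians were 0.21 and 0.20, and 32 and 13 members lay above 0. Mx1, an inhibitor of influenza virus, was at 163 and 188 CPM in WT and 220.1 and 239 CPM in NKO, Isg15, a ubiquitin-like modifier, at 128 and 132 CPM in WT and 139 and 163 CPM in NKO, and Oas1a, which makes the activator of RNase L, at 161 and 168 CPM in WT and 171 and 168 CPM in NKO. Irf7, the factor that amplifies interferon production, was at 992 and 1029 CPM in WT and 827 and 863 CPM in NKO (log2 difference -0.26 ± 0.23). Of 11 genes of the interferon receptor and its signalling 0 were called, beside 3.8% of all tested genes. Ifnar1 was at 189 and 183 CPM in WT and 180.4 and 189 CPM in NKO and Stat2 at 229 and 269 CPM in WT and 308 and 344 CPM in NKO, so that the genotypes overlapped for the receptor chain, while both NKO libraries were above both WT libraries for Stat2 (log2 difference 0.39 ± 0.17).

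The listed antiviral ISGs called higher were Rsad2 and Cmpk2, neighbours on chromosome 12 (chr12:26442743-26456452 and chr12:26469215-26479837). Rsad2 encodes viperin, which makes a chain-terminating nucleotide from CTP, and Cmpk2 a nucleotide kinase. Rsad2 was at 209 and 262 CPM in the WT libraries and 347 and 405 CPM in the NKO libraries (log2 fold change 0.68 ± 0.16 SE, edgeR adjusted p = 0.0126), and Cmpk2 at 179.7 and 229.9 CPM and 319 and 376 CPM (log2 fold change 0.76 ± 0.20 SE, edgeR adjusted p = 0.0188). Both calls were lost without WT_IFNβ replicate 1 (adjusted p = 0.166 and 0.205) or without NKO_IFNβ replicate 2 (0.129 and 0.155), and that of Cmpk2 also in the fit of the 16 libraries of one date stamp (0.058).

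Promoters of 4 ISGs and GTPases are shown because they hold the letters of the interferon-stimulated response element, to which STAT factors and IRF9 bind. The windows are the 250 bases in front of the annotated start, from RefSeq promoter sequences of build GRCm38.p6 (mm10), 5′ to 3′ on the strand of the gene. Capitals mark matches to the motif, 2 copies of TTTC with any 2 bases between them, searched on both strands, and the 2 matches in Gbp3 overlap.
Ifit1 (chr19:34640639-34640888, plus strand): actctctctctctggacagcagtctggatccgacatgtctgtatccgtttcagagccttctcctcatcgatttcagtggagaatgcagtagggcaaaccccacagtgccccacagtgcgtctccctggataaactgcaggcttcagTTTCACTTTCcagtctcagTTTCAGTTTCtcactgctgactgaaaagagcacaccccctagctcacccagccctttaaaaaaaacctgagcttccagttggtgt
Rsad2 (chr12:26456453-26456702, minus strand): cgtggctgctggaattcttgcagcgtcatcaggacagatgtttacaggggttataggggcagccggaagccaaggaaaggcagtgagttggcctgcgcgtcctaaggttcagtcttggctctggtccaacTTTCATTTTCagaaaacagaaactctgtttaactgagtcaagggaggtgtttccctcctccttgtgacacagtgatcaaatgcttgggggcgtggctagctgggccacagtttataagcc
Gbp3 (chr3:142559794-142560043, plus strand): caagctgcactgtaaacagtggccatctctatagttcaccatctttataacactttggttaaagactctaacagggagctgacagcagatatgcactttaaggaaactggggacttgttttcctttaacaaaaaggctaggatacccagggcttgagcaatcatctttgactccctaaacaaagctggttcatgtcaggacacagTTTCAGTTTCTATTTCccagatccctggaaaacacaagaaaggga
Gbp5 (chr3:142496684-142496933, plus strand): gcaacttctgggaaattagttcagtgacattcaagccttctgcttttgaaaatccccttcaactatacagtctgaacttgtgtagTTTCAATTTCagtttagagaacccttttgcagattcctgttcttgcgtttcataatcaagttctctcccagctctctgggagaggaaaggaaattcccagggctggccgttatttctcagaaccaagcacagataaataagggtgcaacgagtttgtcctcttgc

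Such a match was found in 9 of the 10 GTPase windows that could be had for 16 tested genes, in 9 of 26 windows of antiviral ISGs and in 15.7% of the 369 windows of genes induced by IFNβ in WT, against 2.98% of all 32851 promoter windows. Among the NKO-dependent genes it was found in 3.51% of 171 windows of genes called higher and in 3.91% of 179 windows of genes called lower. A match is a description of the letters and not a measured site, and near-identical genes such as Tgtp1 and Tgtp2 share theirs. Windows with the start listed for the gene covered 9372 of the 13407 tested genes.

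The IFNβ response was taken against vehicle within each genotype. In WT cells 549 genes were induced and 318 lowered (4.09% and 2.37% of the tested genes, 6.47% together), and in NKO cells 757 and 366 (5.65% and 2.73%, 8.38% together). 468 genes were induced in both, which is 85.2% of the WT list and 61.8% of the NKO list, and 0 genes responded in opposite directions. The median log2 response of antiviral ISGs was 2.07 in WT and 2.91 in NKO, and that of GTPases 2.60 and 4.03. With vehicle, 25 of 39 antiviral ISGs and 13 of 16 GTPases were called lower in NKO than WT, beside 3.8% of all tested genes. The responses are taken against these same vehicle libraries. Without WT_Veh replicate 2 the median WT response was 2.46 for antiviral ISGs and 3.24 for GTPases, nearer to that of NKO. The part of this library in the gap was not tested. Ifit2, which binds viral RNA, had 23.2 and 77.2 CPM in WT and 11.2 and 12.5 CPM in NKO with vehicle, and 857 and 1059 CPM and 1359.5 and 1488 CPM with IFNβ. Gbp6 had 1.86 and 3.97 CPM and 0.718 and 0.798 CPM with vehicle, and 22.9 and 21.3 CPM and 22.5 and 26.2 CPM with IFNβ. For both genes WT and NKO were apart with vehicle, and for Gbp6 they overlapped with IFNβ. Both genes were named for a difference of NKO effects that includes these vehicle libraries, so nothing is read from their separation.

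The difference of the NKO effects was tested as an interaction, that is, the NKO to WT log2 fold change with IFNβ minus that with vehicle. It was called for 81 genes (0.604% of those tested), positive for 74 (0.552%) and negative for 7 (0.0522%). Of the 74 genes 58 were induced in WT (4.09% of all tested genes). Called lower in NKO with vehicle were 53 (beside 3.8%), and called higher in NKO under IFNβ were 5 (beside 1.86%). The interaction is computed from the same libraries as these calls, so nothing is read from these shares. Antiviral ISGs made up 16 of the 74 genes and GTPases 9. Ifit2 (2.64 ± 0.53, edgeR adjusted p = 0.0236), Ifit1 (2.39 ± 0.44, 0.0139) and Gbp6 (2.06 ± 0.34, 0.000163) were among the largest. The vehicle replicates of WT stood apart for ISGs: replicate 2 was above replicate 1 for each ISG plotted, and the WT vehicle pair differed by 6.16 in chi-square per degree of freedom over genes, against 1.63 to 1.95 in the IFNβ pairs and the NKO vehicle pair. Without WT_Veh replicate 2, 6 antiviral ISGs and 4 GTPases were called lower with vehicle, 10 and 6 were called in the interaction, and the median interaction of the antiviral ISGs was 0.55 in place of 0.91. Without WT_Veh replicate 1 these numbers were 30 and 15, 32 and 14, and 1.20. Without NKO_Veh replicate 1 or 2 the interaction was called for 4 or 6 antiviral ISGs, and within the 16 libraries of one date stamp for 3, where Ifit2 and Ifit1 were not called (adjusted p = 0.0907 and 0.0703) at nearly equal size (2.64 and 2.38). Without WT_IFNβ replicate 1 or NKO_IFNβ replicate 2 it was called for 5. The number of calls thus depended on single libraries, whereas the median stayed above 0 in each of these fits.

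**Figure D4:**
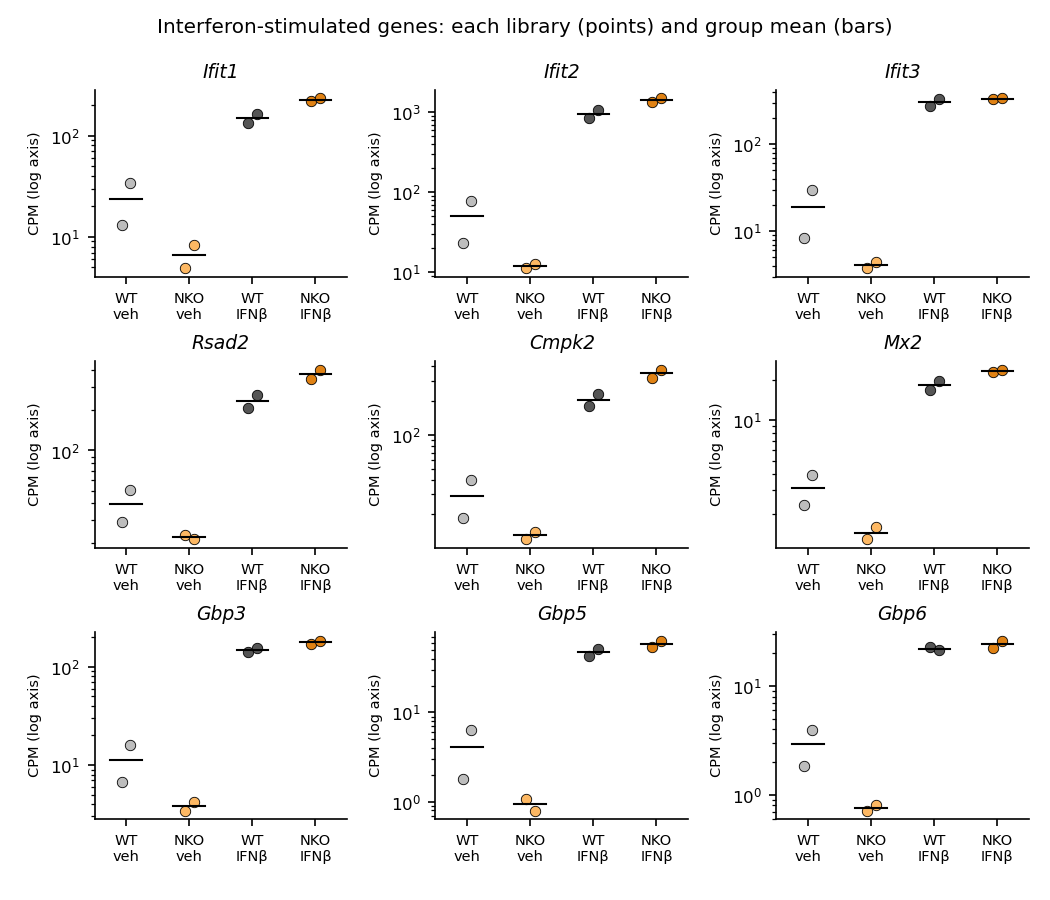
CPM on a log axis of 9 ISGs in 4 groups of 2 libraries (points), with a bar at each group mean; veh is vehicle and IFNβ is 6 h of treatment. With vehicle both NKO libraries lie below both WT libraries in each panel and the WT libraries are spread. The genes were chosen by interactions that include these vehicle libraries, so nothing is read from their order. With IFNβ the genotypes are less than 2-fold apart, as for Ifit3 (273 and 332 CPM in WT, 327 and 335 CPM in NKO).

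Against the mean NKO effect with vehicle, poly I:C and IL4 the NKO effect with IFNβ differed for 41 genes (0.306%), positive for 27 (0.201%) and negative for 14 (0.104%). The most positive were Gbp5 (1.58 ± 0.31), Gbp6, Cmpk2, Mx2, Rsad2 and Gbp3, and the negative ones included Swsap1, a DNA repair factor (-1.19 ± 0.30), and Rnf141, a RING finger protein. For Swsap1 the NKO effect was -0.65 with IFNβ, 0.29 with vehicle, 1.09 with poly I:C and 0.26 with IL4. Gbp6 and Mx2 kept this call with each of the 16 libraries left out in turn. A gene outside the antiviral lists was Cd274, which encodes the checkpoint ligand PD-L1: it was at 161 and 182 CPM in WT and 262 and 284 CPM in NKO with IFNβ and at 108 and 122 CPM and 124 and 128 CPM with vehicle. Its NKO effect with IFNβ was a log2 fold change of 0.67 ± 0.07 SE (edgeR adjusted p = 6.53e-09). It exceeded the mean effect with vehicle, poly I:C and IL4 by 0.69 ± 0.08 (edgeR adjusted p = 3.49e-06). The effects with poly I:C and IL4 enter this value, so it is not a difference from vehicle alone. Without WT_IFNβ replicate 1 the change of Cd274 with IFNβ was 0.58, just under the fold threshold. Glipr2, of the pathogenesis-related protein family, was at 13.1 and 14.2 CPM in WT and 26.7 and 28 CPM in NKO with IFNβ and at 5.85 and 3.63 CPM and 4.81 and 3.76 CPM with vehicle, with an interaction of 1.16 ± 0.24 (edgeR adjusted p = 0.00539).

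Most NKO-dependent genes under IFNβ were also NKO-dependent with vehicle, in libraries that the IFNβ comparison does not share. Both comparisons do share the date stamp, the Cre difference and one estimate of the spread. The labels do not say whether their cells came from the same animals. Of the 250 higher genes 175 were called higher with vehicle (70%, beside 2.4% of all tested genes) and 242 lay above 0. Of the 260 lower genes 143 were called lower with vehicle (55%, beside 3.8%) and 256 lay below 0. Called in the opposite direction were 2 genes, Rsad2 and Cmpk2. The 318 genes called in the same direction made up 62.4% of the IFNβ list and 38.2% of the 832 genes called with vehicle (6.21% of those tested). With poly I:C 131 of the higher and 93 of the lower genes were called in the same direction, beside 3.01% and 2.92% of all tested genes (5.93% in either direction). With IL4 these were 147 and 118 genes, beside 1.9% and 2.33% (4.24%), and in all 4 conditions 86 genes were higher and 50 lower. For Scd1 the log2 fold changes were 3.79 with IFNβ, 3.97 with vehicle, 2.92 with poly I:C and 3.76 with IL4, and for Mmp9 3.23, 3.06, 3.35 and 3.25. Cd300e stood at -1.83, -2.14, -1.33 and -1.77. In the IFNβ comparison alone 112 genes were called, and for 8 of these the difference from the mean of the other conditions was itself called.

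**Figure D5:**
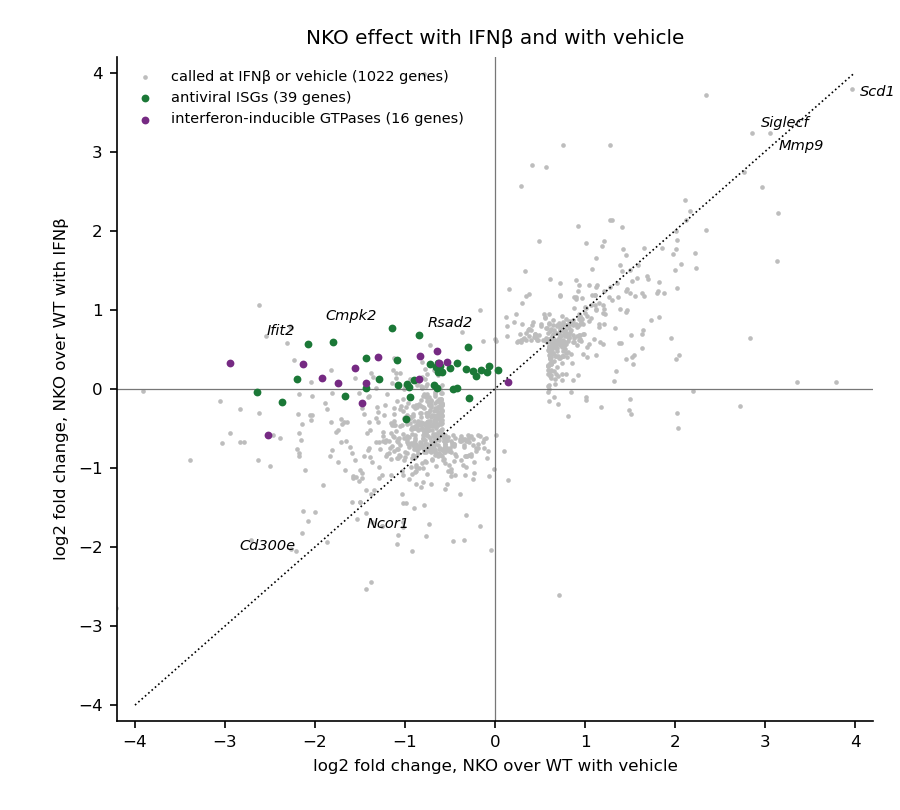
log2 fold change of NKO over WT with vehicle (horizontal) and with IFNβ (vertical) for the 1022 genes called in either (grey), with antiviral ISGs (green) and interferon-inducible GTPases (purple) on top; 12 grey genes lie beyond the axes and the dotted line marks equal effects. Scd1, Siglecf, Mmp9, Ncor1 and Cd300e lie near the dotted line, while 38 of 39 antiviral ISGs and 15 of 16 GTPases lie left of 0, most of them close to the horizontal axis.

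Of the 549 genes induced by IFNβ in WT, 503 were not called between genotypes under IFNβ, 36 were lower (6.56%, beside 1.94% of all tested genes) and 10 were higher (1.82%, beside 1.86%). Induction and the NKO comparison share the WT IFNβ libraries, so nothing is read from these shares. Of the 36 lower genes 26 were also lower in NKO with vehicle, 27 were induced in NKO too, and for 1 the interaction was called. Besides Cd300e, they included Aoah, which inactivates lipopolysaccharide (45.5 and 42 CPM in WT and 20.9 and 21.9 CPM in NKO), Ccl4, Marcksl1 (64 and 70.1 CPM in WT and 37.9 and 36.3 CPM in NKO), Aif1, an actin-binding macrophage protein (54.4 and 49.7 CPM in WT and 29.1 and 30.5 CPM in NKO), Dmwd, Phactr1 and Ccne1. Phactr1 was not called without WT_IFNβ replicate 1 (adjusted p = 0.428) or NKO_IFNβ replicate 1 (0.192). For Aif1 the IFNβ response was 1.00 in WT and 1.77 in NKO on the log2 scale, both induced from 20.4 and 31.9 CPM and 9.69 and 7.87 CPM with vehicle. The 10 higher genes included Mmp13, Glipr2, Pou3f1, Hspa1b, Slamf8, Ifit1bl1, Cmpk2, Dio2 and Rsad2, of which Hspa1b was not called without NKO_IFNβ replicate 2 (adjusted p = 0.0645) and Ifit1bl1 not without WT_IFNβ replicate 1 (0.0573). Mmp13 rose from 23.8 and 21.6 CPM with vehicle to 168 and 186 CPM with IFNβ in WT, and from 87.1 and 96.9 CPM to 419 and 439.5 CPM in NKO, so that it was higher in NKO under both conditions. Slamf8, a receptor of the SLAM family, was at 112 and 100.4 CPM in WT and 184 and 192 CPM in NKO (log2 fold change 0.82 ± 0.07 SE, edgeR adjusted p = 2.82e-13), and Dio2, the deiodinase that activates thyroid hormone, at 52.5 and 55.5 CPM in WT and 88.5 and 87.3 CPM in NKO.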

How the data were processed

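RNA-seq libraries were made from poly(A) mRNA of BMDMs with dUTP strand marking. The authors aligned the reads to mm10 with STAR and counted strand-specific reads over RefSeq exons with HOMER, 1 transcript per gene, and deposited raw counts. The tool versions are not given in the sources used here, and DESeq2 is named in the submitters' processing notes. Depth was 12.3 M to 13.8 M counts per library, of 14.4 M to 16.2 M mapped reads, and the detection limit covers counting error only.

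Groups came from the labels. The count matrix of 24 libraries (12 groups of 2) was filtered with filterByExpr, scaled by TMM and fitted with edgeR 4.0.16 in R 4.3.3 (glmQLFit, robust, limma 3.58.1), 1 coefficient per group. NKO was compared with WT per condition, IFNβ with vehicle per genotype, and NKO effects with each other by contrasts. Adjusted p-values are Benjamini-Hochberg values over the 13407 tested genes, and a call needed one below 0.05 and a change above 1.5-fold. SE is the absolute log2 fold change over the square root of F. Permuting 2 against 2 libraries exactly cannot give a p below 0.05. The fit was tested on simulated data of the IFNβ comparison, where 89 of 100 genes changed 2-fold and 98 of 100 changed 4-fold were recovered among 13310 genes, with 5 false calls. The simulated counts took their spread from this same fit. Only genes above a set level were changed, and none by less than 2-fold. The simulation therefore checks the code and gives no error rate for the calls in the data.

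Genes were named by a rule: the targeted genes and those the study names, the 15 largest changes in each direction at 5 CPM or more, every called list member, the 6 most positive and negative genes of each interaction, up to 10 IFNβ-induced genes in each direction, genes called oppositely with vehicle, and the 6 most abundant called genes in each direction. The members, lists and rule were chosen with earlier results of these data known. Tbl1xr1, and uncalled genes such as Apoe, are list members. Alternatives were DESeq2 1.42.0, DESeq2 size factors, other filters, no fold threshold, fewer libraries, a replicate block and single libraries left out. Figures were drawn with matplotlib 3.10.9. Count tables of the other experiments of the series were not used here. A few named genes are not reported here.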

Additional observations from a re-analysis of the deposited data

Results flagged for a closer look

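The following genes stood out because the NKO effect with IFNβ differed from that with vehicle, or from the mean of those with vehicle, poly I:C and IL4, by edgeR's quasi-likelihood test of the interaction (Benjamini-Hochberg adjusted p below 0.05 over 13407 genes). Values are differences of log2 fold changes, and each was fitted again with each library left out.

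Against the effect with vehicle, the difference was 2.64 for Ifit2, 2.39 for Ifit1 and 2.33 for Ifit3, whose products bind viral RNA or its partners. It was 2.06 for Gbp6 and 1.82 for Gbp3, both guanylate-binding GTPases, and 1.91 for the nucleotide kinase Cmpk2. In each of these genes both NKO vehicle libraries lay below both WT vehicle libraries. The difference by which the genes were chosen includes these vehicle libraries, so nothing is read from their order. With 8 libraries left out in turn the call was lost in 5 fits for Ifit2, 3 for Ifit1, 6 for Ifit3, 1 for Gbp6, 4 for Gbp3 and 5 for Cmpk2. Without WT_Veh replicate 2 the difference was 1.53 for Ifit2, 1.56 for Ifit1, 1.14 for Ifit3, 1.41 for Gbp6, 1.06 for Gbp3 and 1.25 for Cmpk2, and Gbp6 (adjusted p = 0.0593) and Cmpk2 (0.078) were no longer called. The differences in the other direction were smaller. They were -1.15 for Bbs10, a chaperonin-like ciliary gene, -0.89 for the noncoding RNA Kcnq1ot1, -0.75 for Tmem158, -0.70 for Lrrc75a, -0.64 for the secreted protease Adamts10 and -0.59 for Wdr62, and the calls were lost in 2 (Adamts10) to 7 (Wdr62) of the 8 fits.

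Against the mean effect with vehicle, poly I:C and IL4, the difference was 1.58 for Gbp5, 1.39 for Gbp6, 1.26 for Cmpk2, 1.09 for the antiviral GTPase Mx2, 1.00 for Rsad2 and 1.00 for Gbp3. Of 16 fits with 1 library left out, the call was lost in 0 for Gbp6 and Mx2, 3 for Gbp5, 5 for Rsad2, 6 for Cmpk2 and 12 for Gbp3. In the other direction it was -1.19 for the DNA repair factor Swsap1, -0.97 for 1810011H11Rik, -0.94 for Rnf141, -0.83 for Kcnq1ot1, and -0.81 and -0.72 for Rapgef3 and Rapgef5, exchange factors of Rap GTPases. The call was lost in 0 of the 16 fits for 1810011H11Rik, 2 for Rapgef5, 4 for Swsap1, 6 for Kcnq1ot1, 8 for Rnf141 and 11 for Rapgef3. In the order IFNβ, vehicle, poly I:C and IL4 the NKO effect was -0.37, -0.28, 1.93 and 0.15 for 1810011H11Rik, -0.54, -0.20, 0.76 and -0.02 for Rapgef5 and -0.05, 0.53, 1.25 and 0.50 for Rapgef3, so that poly I:C stood farthest from the others. In the poly I:C libraries 1810011H11Rik was at 0.833 and 0.601 CPM in WT and 2.32 and 3.21 CPM in NKO. The difference from vehicle alone was not called for 1810011H11Rik (-0.09, edgeR adjusted p = 0.909), Rapgef5 (-0.33, 0.419), Rapgef3 (-0.58, 0.298), Rnf141 (-0.56, 0.464), Swsap1 (-0.94, 0.157) or Gbp5 (2.44, 0.0807).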

How the results depend on the processing

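With DESeq2 in place of edgeR 234 genes were higher and 217 lower in NKO under IFNβ, of which 231 and 212 were shared with the 250 and 260 of edgeR. In all, 131 of 156 recomputed counts stayed within 1.5 times of the reported ones, and no value reversed. Without the fold threshold the counts were 1047 higher and 759 lower in NKO, 1978 induced and 1424 lowered in WT, 2100 and 1440 in NKO, 270 for each interaction, 246 and 284 induced genes lower and higher in NKO, and 1180 called the same way with vehicle. The interaction with vehicle was called for 53 genes in the 16 libraries of one date stamp and for 31 in the 8 libraries compared, and 6 induced genes were higher in NKO in a fit of the compared libraries. These fits hold fewer libraries, and the cause was not tested further. With single libraries left out, 215 to 230 genes were higher and 164 (without WT_IFNβ replicate 1) to 220 lower in NKO. In these fits 498 to 624 genes were induced and 237 to 357 lowered in WT, 683 to 729 and 304 to 346 in NKO, 26 to 46 induced genes were lower and 7 to 15 higher in NKO, and 258 to 317 were called the same way with vehicle. The interaction with vehicle was called for 36 (without WT_IFNβ replicate 1) to 256 genes (without WT_Veh replicate 1), and that with the mean of 3 conditions for 16 to 107 (the same libraries). It was called for 50 without WT_Veh replicate 2, 44 and 53 without NKO_Veh replicates 1 and 2, and 43 without NKO_IFNβ replicate 2, and the second for 21 without NKO_IFNβ replicate 2 and 26 without WT_PolyIC replicate 2. The number of antiviral ISGs and GTPases called without single vehicle libraries was computed after seeing the data. Of 96 named genes called under IFNβ, 96 kept their direction in every fit and 25 lost the call in at least 1. DESeq2 gave no adjusted p for 12 interaction estimates. A fit that leaves 1 library in a group takes its spread from the other groups.

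The replicate numbers did not pair the libraries: deviations of same-numbered libraries correlated at -0.05 to 0.06 over 28 pairs of groups. With the replicate block 249 genes were higher and 265 lower in NKO under IFNβ (247 and 253 shared), and 92 and 45 were called in the interactions.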
